A study of Mus musculus with 6 samples.

Results

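The 10 genes described here are 8 genes that mark the resident Kupffer cell, *Clec4f*, *Vsig4*, *Timd4*, *Cd5l*, *Marco*, *Cd163*, *Folr2* and *Id3*, and 2 genes expressed by macrophages in general, *Adgre1* and *Csf1r*, which serve as reference. They were taken by name from the deposited count table, where each symbol has 1 row, and all 10 were among the 14496 genes with enough counts to be tested out of 25403 listed. The counts come from whole liver of 3 WT C57BL6/J mice and 3 mice with the *Themis* KO genotype, an inactivation in the whole body that is not limited to 1 cell type. All 6 mice received the same MASH diet, named the AMYLIN liver NASH diet in the labels, in which fat gave 40 kcal%, fructose 20 kcal% and cholesterol was added at 2%, for 3 months from an age of 10 to 12 weeks. No chow-fed liver was in the comparison, and the labels give no batch. They give no sex either. The study describes its diet-fed WT and *Themis*-KO cohort as male but also mentions expression work on livers of both sexes, so the sex of these 6 mice is not settled here.

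Kupffer cells are the macrophages of the liver sinusoid. They arise from embryonic precursors, renew themselves in the tissue and hold a gene program that signals from neighbouring endothelial cells, stellate cells and hepatocytes keep up. They take up particles, bacteria, hemoglobin and dying cells from portal blood. In steatohepatitis, monocytes enter the liver and become macrophages that share the pan-macrophage genes but carry few or only some of the identity genes, so both kinds of gene are read side by side here.

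Libraries held between 20679642 and 25649767 estimated counts. *Themis* itself had between 8.07 and 25.6 CPM (counts scaled to library size, after TMM normalization) in WT and between 7.74 and 9.97 in *Themis*-KO livers. These ranges overlap, so the counts of the targeted gene did not separate the genotypes, and groups are named by their labels. WT replicates 1 and 2 stood apart from the other 4 livers in the split of reads between *mt-Nd3* and the gene model *Gm28438*, which took 96.6% and 96.8% of the pair's CPM in them and at most 3.26% elsewhere. This split is called the mitochondrial type below, a name that the labels do not give. Hepatocyte markers were abundant in every liver, with a summed CPM of 7 genes from 48578 to 62567. Values of the 3 livers of a label are given throughout in the order of replicates 1, 2 and 3. In whole tissue, fewer Kupffer cells and less RNA of a gene per Kupffer cell cannot be told apart.

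None of the 10 genes passed an adjusted p of 0.05 in the genotype comparison (0 of 10, edgeR quasi-likelihood test with Benjamini-Hochberg adjustment over all genes tested). Among all genes tested, 9.11% passed, 4.97% with a higher and 4.14% with a lower level under the *Themis*-KO label. At an unadjusted p under 0.05 the count was 4 of 10, against 30.7% of all genes. DESeq2 gave an adjusted p under 0.05 to the same 4 genes, *Cd5l*, *Cd163*, *Id3* and *Csf1r*, against 17.0% of the genes to which it gave an adjusted p. The 8 identity genes did not share a direction. Of them, 5 had a positive and 3 a negative log2 fold change, with a median of 0.17 beside 0.0095 for all genes tested. *Cd5l* and *Csf1r* were higher in every liver labelled *Themis*-KO than in every WT liver (2 of 10, against 17.7% of all genes), and *Cd163* was lower without overlap (1 of 10, against 16.9%).

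**Figure D1:**
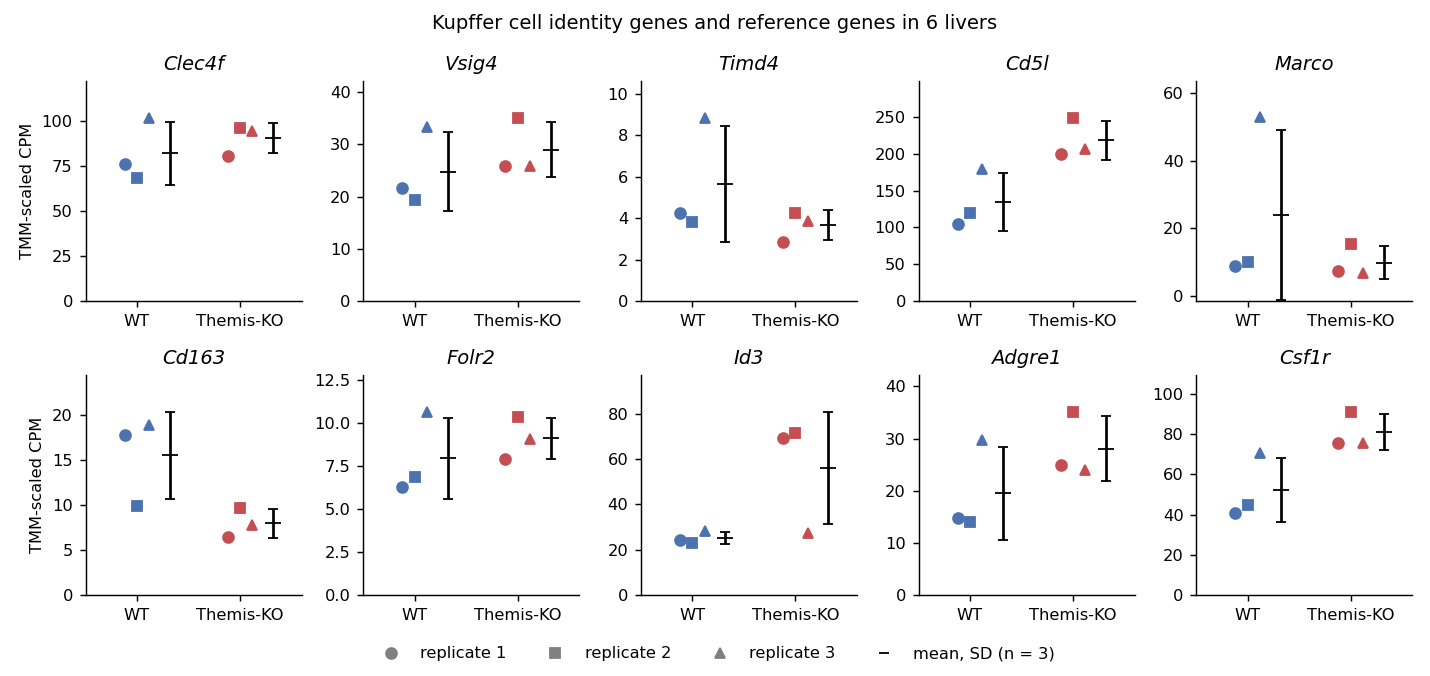
Level of each gene in each liver, in TMM-scaled CPM on an axis that includes 0, with WT livers in blue and livers labelled *Themis*-KO in red, marker shapes for the replicate number and black bars for the mean and SD of 3 livers. WT replicate 3 is the highest WT liver and *Themis*-KO replicate 2 the highest *Themis*-KO liver in all 10 panels, and only *Cd5l*, *Csf1r* and *Cd163* have groups that do not overlap.

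The members with a negative value were *Cd163*, *Timd4* and *Marco*, none of which passed the test. *Cd163* encodes the receptor for hemoglobin bound to haptoglobin. It reached 17.8, 9.93 and 18.9 CPM (WT) and 6.46, 9.63 and 7.84 CPM (*Themis*-KO). The highest *Themis*-KO liver lay just below the lowest WT liver. This gave a log2 fold change of −0.96 (SE 0.26, 95% interval from −1.56 to −0.37, adjusted p = 0.0562), a level 1.95-fold lower, and DESeq2 gave an adjusted p of 0.00359. *Cd163* kept a negative change in each of 14 alternative analyses, between −1.24 and −0.80.

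*Timd4* encodes TIM-4, a phosphatidylserine receptor for apoptotic cells that is found on Kupffer cells of embryonic origin. It was the member with the fewest reads, from 67 to 224 counts a liver. It reached 4.27, 3.84 and 8.84 CPM (WT) and 2.85, 4.26 and 3.87 CPM (*Themis*-KO). WT replicates 1 and 2 lay among or beside the livers labelled *Themis*-KO, and WT replicate 3 was 2.18-fold above the mean of the other 2 WT livers. The log2 fold change of −0.63 (SE 0.34, adjusted p = 0.239) became −0.15 (adjusted p = 0.698) without that liver.

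*Marco* encodes a class A scavenger receptor that binds bacteria and particles. It reached 8.67, 9.84 and 53.0 CPM (WT) and 7.14, 15.4 and 6.71 CPM (*Themis*-KO). WT replicate 3 alone stood 5.72-fold above the mean of the other 2 WT livers, the widest gap of this kind among the 10 genes. The log2 fold change of −1.29 (SE 0.71, 95% interval from −2.93 to 0.34, adjusted p = 0.248) turned to 0.075 (adjusted p = 0.913) without WT replicate 3, so the negative value rests on 1 liver.

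*Cd5l*, which encodes the secreted protein AIM, a product of tissue macrophages under control of liver X receptors, had the highest level. It reached 104, 120 and 180 CPM (WT) and 200, 249 and 206 CPM (*Themis*-KO). The groups did not overlap, although WT replicate 3 came close to *Themis*-KO replicate 1. On the log2 scale it differed by 0.70 (SE 0.20, 95% interval from 0.24 to 1.16, adjusted p = 0.0649), a level 1.62-fold higher, and DESeq2 gave an adjusted p of 0.00872. Over 14 alternatives the change of *Cd5l* stayed positive, from 0.28 to 0.96, and 5 of them gave an adjusted p under 0.05.

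*Id3* encodes an inhibitor of basic helix-loop-helix transcription factors that Kupffer cells need for their development, and it is also expressed in endothelial and stellate cells. It reached 24.3, 23.1 and 28.3 CPM (WT) and 69.1, 71.6 and 27.4 CPM (*Themis*-KO). Livers 1 and 2 labelled *Themis*-KO were far above all WT livers, whereas replicate 3 lay inside the WT range. On the log2 scale the groups differed by 1.15 (SE 0.32, adjusted p = 0.0627), and by 1.46 (adjusted p = 0.00104) without *Themis*-KO replicate 3. Its close relative *Id1* had the same order among *Themis*-KO livers, with 6.33, 8.88 and 9.98 CPM (WT) and 19.1, 24.7 and 10.6 CPM (*Themis*-KO), and differed by 1.11 on that scale (SE 0.30, adjusted p = 0.0592).

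The remaining identity genes, *Clec4f*, *Vsig4* and *Folr2*, had the smallest differences. *Clec4f*, a C-type lectin gene whose expression is close to exclusive to mouse Kupffer cells, had 76.2, 68.2 and 102 CPM (WT) and 80.7, 96.3 and 94.2 CPM (*Themis*-KO). All 3 livers labelled *Themis*-KO lay within the WT range. Its log2 difference was 0.14 (SE 0.15, adjusted p = 0.568), and its 95% interval from −0.22 to 0.49 does not reach a doubling or a halving of the level.

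*Vsig4* encodes the complement receptor CRIg. It reached 21.7, 19.3 and 33.3 CPM (WT) and 26.0, 35.1 and 25.9 CPM (*Themis*-KO), which is a log2 difference of 0.22 (SE 0.22, 95% interval from −0.28 to 0.73, adjusted p = 0.513). *Folr2*, the gene of folate receptor beta, had 6.28, 6.86 and 10.7 CPM (WT) and 7.90, 10.3 and 9.07 CPM (*Themis*-KO). It differed by 0.19 on the log2 scale (SE 0.22, 95% interval from −0.31 to 0.70, adjusted p = 0.576). For both genes the groups overlapped, and WT replicate 3 was at or near the top of all 6 livers. When the mitochondrial type was a covariate, *Clec4f*, *Vsig4* and *Folr2* turned to −0.17, −0.20 and −0.23. That fit leaves WT replicate 3 as the only WT liver of its type.

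Both reference genes had positive changes. *Csf1r* encodes the receptor for CSF1 and IL-34, on which macrophages depend for survival. It reached 41.0, 45.0 and 70.6 CPM (WT) and 75.6, 91.1 and 75.6 CPM (*Themis*-KO), without overlap between the groups. The groups differed by 0.63 on the log2 scale (SE 0.20, 95% interval from 0.16 to 1.10, adjusted p = 0.0847), and 0.91 (adjusted p = 0.0207) without WT replicate 3. *Adgre1*, the gene of the F4/80 antigen, had 14.8, 14.0 and 29.8 CPM (WT) and 24.9, 35.2 and 24.0 CPM (*Themis*-KO). WT replicate 3 lay within the *Themis*-KO range, and the log2 difference of 0.52 (SE 0.30, adjusted p = 0.273) became 0.96 (adjusted p = 0.0414) without it. With the mitochondrial type as a covariate, which leaves replicate 3 as the only WT liver of its type, the difference was −0.089.

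**Figure D2:**
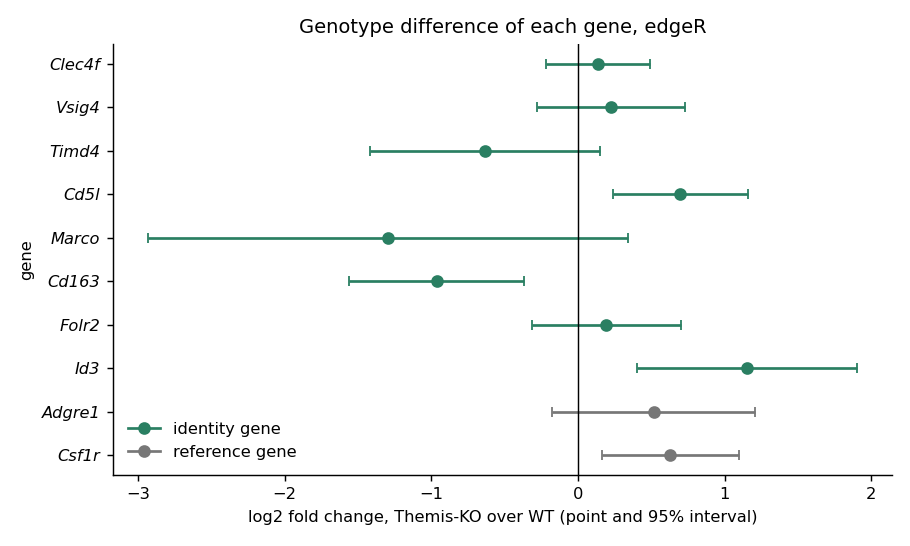
Log2 fold change of livers labelled *Themis*-KO over WT for each gene, with its unadjusted 95% interval from the edgeR fit of 3 against 3 livers, identity genes in green and reference genes in grey. The interval lies above 0 for *Cd5l*, *Id3* and *Csf1r*, below 0 for *Cd163* and across 0 for the other 6, widest for *Marco*.

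Levels of different genes were compared as CPM per kilobase of merged exons. By the mean of 6 livers, *Cd5l* came first at 86.6, followed by *Clec4f* at 34.9, *Id3* at 22.7, *Vsig4* at 18.1, *Csf1r* at 11.5, *Marco* at 8.72, *Adgre1* at 7.34, *Folr2* at 5.51, *Cd163* at 2.15 and *Timd4* at 2.14. *Cd5l* exceeded *Clec4f* in all 6 livers without overlap of their ranges, and *Folr2* likewise exceeded *Cd163*. The ranges of all other neighbours in this order overlapped. *Clec4f* exceeded *Id3* in 4 of 6 livers, and *Cd163* exceeded *Timd4* in 2 of 6. Likewise *Id3* exceeded *Vsig4*, and *Marco* exceeded *Adgre1*, in 2 of 6 livers each, so these places in the order come from a few livers. The mean of *Id3* was 14.1 in WT and 31.3 in livers labelled *Themis*-KO, beside 16.7 and 19.5 for *Vsig4*.

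All 10 are protein-coding genes on GRCm38. *Marco* lies at chr1:120474538-120505024 and *Cd5l* at chr3:87357881-87371073. *Id3*, the shortest, lies at chr4:136143497-136145755. Chromosome 6 holds *Clec4f* at chr6:83644542-83656187 and *Cd163* at chr6:124304656-124330527. *Folr2* lies at chr7:101839988-101857194, *Timd4* at chr11:46810800-46844332, *Adgre1* at chr17:57358691-57483527, *Csf1r* at chr18:61100598-61132149 and *Vsig4* at chrX:96247203-96293438. Exons of *Csf1r* and *Folr2* overlap those of *Hmgxb3* and *Gm10602* on the other strand, and whether counting used strand is not stated. Reads in the overlapping stretches, whose length is not given here, therefore cannot be told apart.

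Variation between mice was shared by the members. WT replicate 3 was the highest WT liver for all 10 genes, from 1.19-fold above the mean of the other 2 WT livers for *Id3* to 5.72-fold for *Marco*, and *Themis*-KO replicate 2 was the highest *Themis*-KO liver for all 10. Within each label, the summed CPM of 12 general macrophage markers was highest in the same liver, with 426, 429 and 641 (WT) and 784, 934 and 717 (*Themis*-KO). The part of this common variation in each genotype difference was not tested.

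To read the identity genes against macrophage RNA of the same liver, each was divided by the geometric mean of *Adgre1* and *Csf1r*. This ratio does not depend on how libraries are scaled. The mean log2 CPM of the 8 identity genes was 4.50 ± 0.50 in WT and 4.51 ± 0.27 in livers labelled *Themis*-KO (SD, n = 3 each), and that of the 2 reference genes 4.93 ± 0.51 and 5.56 ± 0.23. Their difference, identity less reference, was −0.36, −0.50 and −0.45 (WT) and −1.08, −1.003 and −1.08 (*Themis*-KO). It was thus lower in each liver labelled *Themis*-KO, by 0.62 on the log2 scale on average, and varied less among livers of a label (SD 0.071 and 0.045) than either level did. The median of all genes tested was lower by as much relative to the reference genes (−0.62), so the average of the identity genes did not stand apart from the median gene in this measure. Neither reference gene passed the test on its own.

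Gene by gene, 6 of the 8 ratios were lower in every liver labelled *Themis*-KO than in every WT liver, against 19.5% of all genes tested, and 0 of 8 were higher without overlap, against 1.24%. All 8 ratios share 1 denominator in each liver, so they are not independent of each other. Within each label, all 8 identity genes were also highest in the same liver as the reference genes. Division takes out this shared spread, so the 19.5% of all genes is not a matched baseline for them. *Clec4f*, *Vsig4* and *Folr2* are among the 6, but their ratios fell by less than that of the median gene (−0.62 on the log2 scale). The ratio of *Timd4* was 0.176, 0.156 and 0.194 (WT) and 0.0675, 0.0766 and 0.0928 (*Themis*-KO). Here WT replicate 3 no longer stood out, and the ratio was 2.23-fold lower. *Cd163* had ratios of 0.724, 0.398 and 0.412 (WT) and 0.151, 0.171 and 0.186 (*Themis*-KO), or 2.91-fold lower. *Marco* had 0.355, 0.394 and 1.15 (WT) and 0.166, 0.273 and 0.159 (*Themis*-KO), and WT replicate 3 remained apart.

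The log2 ratios of *Clec4f*, *Vsig4* and *Folr2* differed by −0.47, −0.38 and −0.40, beside −0.62 for the median gene. For *Clec4f* the separation was narrow, with a lowest WT value of 2.22 and a highest *Themis*-KO value of 2.21. The ratio of *Cd5l* overlapped between the groups, at 4.29 ± 0.42 in WT and 4.61 ± 0.23 in livers labelled *Themis*-KO (SD, n = 3 each), and *Id3*, at 0.841 ± 0.198 and 1.17 ± 0.48, overlapped as well. Between the 2 reference genes the ratio overlapped, with *Adgre1* at 0.313 to 0.423 of *Csf1r* in WT and 0.318 to 0.387 in livers labelled *Themis*-KO. In alternatives chosen after the data were seen, 6 of 8 ratios were lower without overlap against *Csf1r* alone (43.1% of all genes) and against 12 macrophage markers (60.0%), and 4 of 8 against *Adgre1* alone (7.30%), where *Clec4f* and *Folr2* overlapped.

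**Figure D3:**
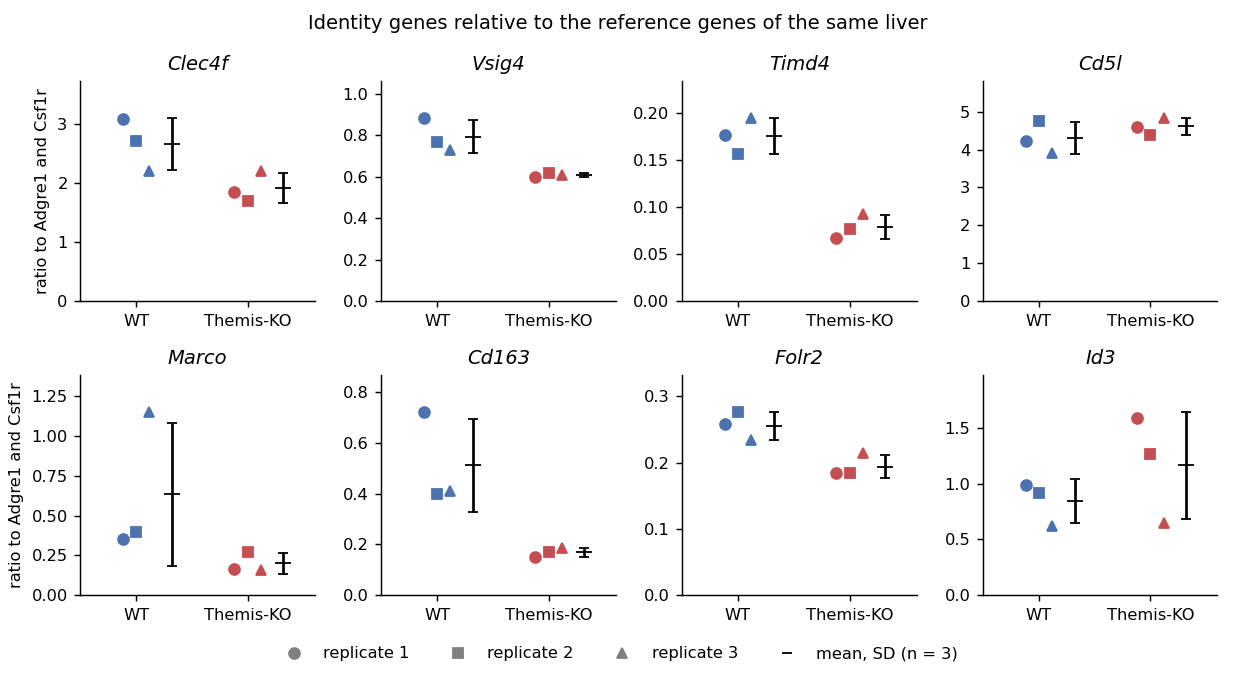
Ratio of each identity gene to the geometric mean of *Adgre1* and *Csf1r* in the same liver, with WT in blue, livers labelled *Themis*-KO in red, marker shapes for the replicate number and black bars for the mean and SD of 3 livers. The groups do not overlap for *Clec4f*, *Vsig4*, *Timd4*, *Marco*, *Cd163* and *Folr2*, and they overlap for *Cd5l* and *Id3*.

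The start sites of the members with the largest ratio differences and of *Cd5l*, whose ratio overlapped, are shown because these genes parted although all are read as marks of 1 cell type. The windows come from RefSeq on GRCm38.p6 and run from 250 bases before to 50 bases after the start, 5′ to 3′ on the strand of the gene. They lie at chr6:124304401-124304700 on the forward strand for *Cd163*, chr11:46810549-46810848 on the forward strand for *Timd4*, chr1:120504975-120505274 on the reverse strand for *Marco* and chr3:87357631-87357930 on the forward strand for *Cd5l*. Capitals mark matches, on either strand, to GAGGAA (core of the PU.1 site), TGCTGA (MAF half-site), TGGGAA (RBPJ), GGCGCC (SMAD1/5) or AGGTCA (nuclear receptor half-site).
Cd163: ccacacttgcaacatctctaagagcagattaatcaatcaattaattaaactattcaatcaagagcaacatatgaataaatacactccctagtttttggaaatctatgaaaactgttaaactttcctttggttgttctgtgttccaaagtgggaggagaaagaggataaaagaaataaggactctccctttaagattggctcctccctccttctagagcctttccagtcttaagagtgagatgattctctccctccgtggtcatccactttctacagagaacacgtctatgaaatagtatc
Timd4: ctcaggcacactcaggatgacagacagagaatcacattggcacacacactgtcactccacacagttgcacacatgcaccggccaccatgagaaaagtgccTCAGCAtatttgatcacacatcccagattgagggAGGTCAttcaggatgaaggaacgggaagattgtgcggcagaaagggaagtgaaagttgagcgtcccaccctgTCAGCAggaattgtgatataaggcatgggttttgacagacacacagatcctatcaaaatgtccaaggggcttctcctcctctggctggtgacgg
Marco: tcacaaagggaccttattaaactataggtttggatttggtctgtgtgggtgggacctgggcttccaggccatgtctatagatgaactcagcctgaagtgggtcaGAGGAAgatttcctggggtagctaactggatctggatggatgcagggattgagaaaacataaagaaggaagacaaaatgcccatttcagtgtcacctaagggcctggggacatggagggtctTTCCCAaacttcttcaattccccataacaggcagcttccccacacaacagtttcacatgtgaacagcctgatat
Cd5l: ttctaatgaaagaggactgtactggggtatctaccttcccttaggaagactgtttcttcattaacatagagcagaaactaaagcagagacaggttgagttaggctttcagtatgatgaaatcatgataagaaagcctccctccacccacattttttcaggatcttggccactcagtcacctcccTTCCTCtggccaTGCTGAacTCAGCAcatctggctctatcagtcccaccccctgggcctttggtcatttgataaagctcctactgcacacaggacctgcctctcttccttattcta

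The window of *Cd163* held none of these letters. That of *Timd4* held TGCTGA at 2 places and AGGTCA at 1, that of *Marco* GAGGAA and TGGGAA at 1 place each, and that of *Cd5l* GAGGAA at 1 place and TGCTGA at 2. No matches of different motifs overlapped. Over the 8 identity genes, all of which had a window, GAGGAA was present in 4, TGCTGA in 5, TGGGAA in 2, AGGTCA in 2 and GGCGCC in 0. Of all 32851 windows, 28.3% held GAGGAA, 19.5% TGCTGA, 25.6% TGGGAA, 16.3% AGGTCA and 11.9% GGCGCC. A match describes the letters of the window only.

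Other genes known from Kupffer cells also took both directions. Of 12 further Kupffer cell genes 11 were tested, and 0 were called higher and 2 called lower (adjusted p under 0.05), with a median log2 fold change of 0.11. *C6*, a complement gene that hepatocytes also express, fell by 0.73 (SE 0.17, adjusted p = 0.0418), and *Paqr9*, also a hepatocyte gene, fell by 0.51 (SE 0.12, adjusted p = 0.0404). *Fcna*, which encodes the lectin ficolin A, had 27.6, 24.2 and 35.9 CPM (WT) and 16.8, 20.6 and 23.1 CPM (*Themis*-KO) (log2 fold change −0.54, adjusted p = 0.0850). *Cd38*, *Clec1b* and *Ccl24* had changes of 0.47, 0.51 and 0.78 with adjusted p of 0.0682, 0.0853 and 0.0938, and *Slc40a1*, the iron exporter ferroportin, one of 0.11 (adjusted p = 0.646). The direction of the calls in this list depended on the scaling and the tool, with 2 higher and 0 lower after scaling by total counts alone and 1 higher and 3 lower with DESeq2. Without WT replicate 3 it was 1 higher and 0 lower, and without *Themis*-KO replicate 3 it was 1 higher and 3 lower.

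Among 12 transcription factors of the Kupffer cell program, 0 were called higher and 1 lower, with a median of 0.21. The gene that fell was *Rxra* (−0.42, SE 0.09, adjusted p = 0.0351), which is broadly expressed in hepatocytes. This count too changed with the analysis, to 4 higher and 0 lower with total counts alone and 3 higher and 1 lower with DESeq2. It was 2 higher and 0 lower without WT replicate 3, and 4 higher and 2 lower without *Themis*-KO replicate 3. *Spi1*, which encodes PU.1, had a change of 0.88 (adjusted p = 0.0545) without overlap. *Nr1h3*, which encodes liver X receptor alpha, had −0.15 (adjusted p = 0.323) and *Spic*, a factor of iron-recycling macrophages, 0.089 (adjusted p = 0.868). *Spic* was also the gene outside the members whose pattern over the 6 livers came closest to the mean of the 8 identity genes, with a root-mean-square distance of 0.12 on the log2 scale among 13033 genes compared. *Atp7a* (0.13), *Ccdc142* (0.13), *Tgif2* (0.14) and *Psph* (0.16) came next. *Vsig4* (0.13) and *Folr2* (0.17) were the members nearest to that mean, and *Marco* (0.74) and *Id3* (0.67) the farthest. Each identity gene is part of that mean, so these distances are not on a par with those of the outside genes.

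Of 10 niche signals, 1 was called higher and 0 lower (median 0.23). *Il34*, the second ligand of the CSF1 receptor, rose by 0.95 (SE 0.16, adjusted p = 0.0237), from 2.43, 2.16 and 2.25 CPM (WT) to 4.72, 4.22 and 4.25 CPM (*Themis*-KO). *Csf1* had 0.48 (adjusted p = 0.151), the Notch ligand *Dll4* 0.051 (adjusted p = 0.843), and the BMP ligands *Gdf2* and *Bmp10* 0.026 and −0.35 (adjusted p = 0.926 and 0.331).

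Of 10 heme and iron handling genes, 1 was called higher and 0 lower (median 0.21), and this was the heme transporter gene *Slc48a1* (0.44, SE 0.09, adjusted p = 0.0345). *Hmox1*, the heme-degrading enzyme induced through CD163, had 22.7, 21.6 and 33.5 CPM (WT) and 166, 90.1 and 27.1 CPM (*Themis*-KO) (log2 fold change 1.87, SE 0.55, adjusted p = 0.0710). Its *Themis*-KO replicate 3 lay in the WT range, as for *Id3*. Of 10 apoptotic cell uptake genes, 5 were called higher and 0 lower (median 0.69). *Gas6*, a bridging ligand to phosphatidylserine, rose by 0.93 (SE 0.10, adjusted p = 0.00936), *Axl*, its receptor, by 0.82 (SE 0.14, adjusted p = 0.0224) and *Mfge8*, another bridging protein, by 0.80 (SE 0.10, adjusted p = 0.0115), together with *Itgb3* and *Elmo1*. *Mertk*, another receptor of the same family as *Axl*, had 0.34 (adjusted p = 0.108).

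The lists of general and recruited macrophage genes had larger medians. Of 12 macrophage markers, 5 were called higher and 0 lower (median 0.72): *Cd68*, *Mpeg1*, *Fcgr1*, *Tyrobp* and *Ctss*. *Cd68* rose by 1.06 (SE 0.23, adjusted p = 0.0369). Of 9 monocyte markers, 4 were called higher and 0 lower (median 1.14), namely *Ccr2*, *Cx3cr1*, *Itgax* and *Ms4a4c*, and *Ccr2*, the chemokine receptor of recruited monocytes, rose by 1.14 (SE 0.24, adjusted p = 0.0345). Their summed CPM ran from 23.3 to 38.3 in WT and from 43.7 to 76.8 in livers labelled *Themis*-KO. Of 8 lipid-associated macrophage genes, which monocyte-derived and some resident macrophages express in steatohepatitis, 6 were called higher (median 1.45), with *Gpnmb* at 1.97 and *Cd63* at 1.96. In whole liver the cells behind these reads were not separated. *Fabp5*, with −0.16 (adjusted p = 0.725), had the lowest value of these 8. These calls changed with the livers and with the model. With 1 liver left out at a time, they numbered 0 to 10 for macrophage markers, 0 to 8 for monocyte markers, 1 to 7 for lipid-associated macrophage genes and 0 to 7 for apoptotic cell uptake, and the counts of all 4 were lower when replicate 1 or 2 of either label was left out. In those 4 analyses, every list other than lipid-associated macrophage genes and apoptotic cell uptake had 0 calls. All 4 counts were 0 with the mitochondrial type as a covariate, which sets apart WT replicates 1 and 2, the livers with the lowest summed macrophage markers. With the replicate number as a block, 0, 0, 1 and 1 genes were called in the same order of lists.

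**Figure D4:**
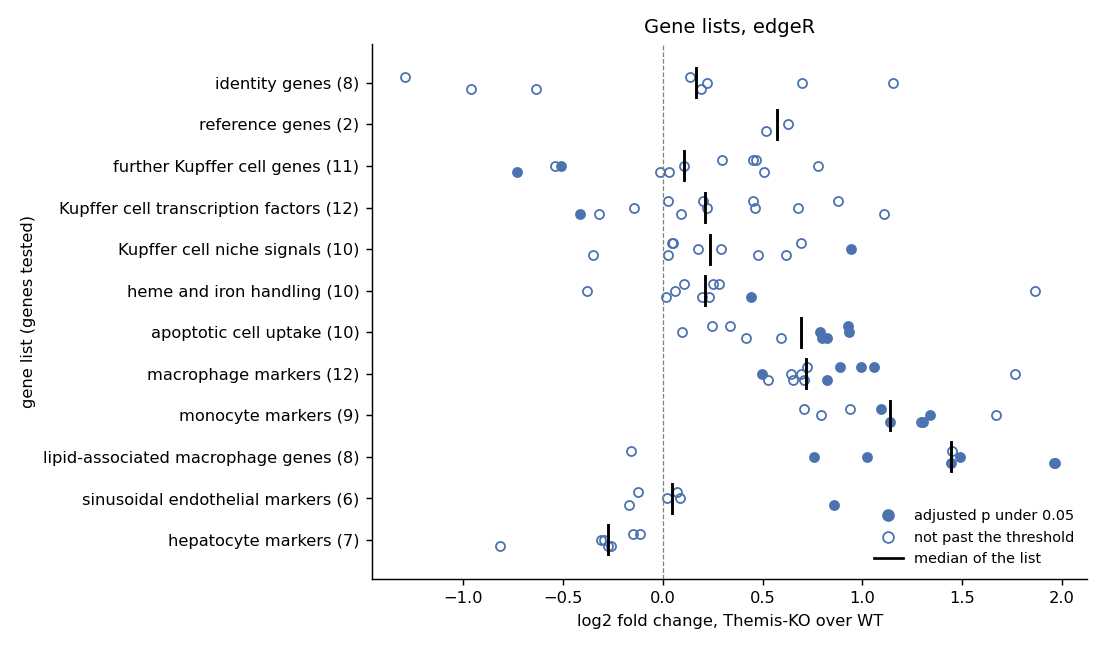
Log2 fold change of livers labelled *Themis*-KO over WT for the genes of 12 lists, with 1 circle per gene tested, filled where the adjusted p from edgeR is under 0.05, and a black line at the median of the list. The identity genes spread to both sides of 0 around 0.17, whereas the medians of macrophage markers (0.72), monocyte markers (1.14) and lipid-associated macrophage genes (1.45) lie to the right.

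Markers of cells that share single members were read beside them. Sinusoidal endothelial markers had a median of 0.048 with 1 of 6 called, *Lyve1* at 0.86 (adjusted p = 0.0131), and their summed CPM ran from 197 to 210 in WT and from 204 to 242 in livers labelled *Themis*-KO. Of 6 stellate cell markers, 2 were called higher (median 0.31), with a summed CPM from 317 to 362 and from 437 to 450 in the same order. Both lineages express *Id3*, and their part in its values was not tested. Of 4 eosinophil markers, cells that can carry F4/80, only *Siglecf* was tested, with 0.24 to 0.355 CPM in WT and 0.614 to 1.08 in livers labelled *Themis*-KO. It was called higher (1.45, SE 0.36, adjusted p = 0.0467), on 5 to 25 counts a liver, and was not called with DESeq2. The summed CPM of this list reached 1.59 at most. Neutrophil markers summed to between 5.81 and 9.98 CPM in WT and between 7.70 and 23.3 in livers labelled *Themis*-KO, with 0 of 4 called and a median of 1.14. All 4 had an unadjusted p under 0.05, and all 4 were called higher without *Themis*-KO replicate 3. T cell (0 of 4), B cell (0 of 4) and dendritic cell markers (0 of 5) gave no call, and neither did cholangiocyte (0 of 5, median 0.96) or hepatocyte markers (0 of 7, median −0.27). In the erythroid list 1 of 5 was called, *Alas2*, which fell by 0.49 (adjusted p = 0.0409), and the 4 hemoglobin genes gave no call.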

How the data were processed

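Liver poly(A) RNA of 3 WT and 3 *Themis*-KO mice was measured as paired-end libraries. The authors trimmed reads with cutadapt 2.3, mapped them to GRCm38 with STAR 2.7.8a and deposited expected counts per gene from RSEM 1.3.3, not normalized and given as whole numbers. The annotation release is not given in the sources used here. RSEM divides shared reads among genes, and strand use is not stated.

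The analysis used R 4.3.3 and edgeR 4.0.16, namely filterByExpr (10907 genes left out), TMM scaling, glmQLFit and glmQLFTest without covariates, and Benjamini-Hochberg adjustment over 14496 genes. Each standard error is the absolute log2 fold change over the square root of F. Log2 CPM used a prior count of 2. DESeq2 1.42.0 was an alternative, as were other scalings, filters, thresholds, a replicate block, the mitochondrial type as a covariate and each liver left out. Coordinates and exon lengths came from GENCODE M21 on GRCm38. The fits were tested on simulated counts. Figures were drawn with matplotlib 3.10.9.

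The genes described, the 20 lists and the alternatives were chosen with earlier results of these data known. All 10 members were named, any gene of the lists could be named beside its list's count, and 5 genes were named for likeness: those outside the members, with a mean CPM of at least 1, whose centred log2 CPM lay nearest to the mean of the identity genes. The study speaks of pairs of WT and *Themis*-KO livers, and nothing ties the replicate numbers to them. P-values set the difference between the labels against the spread between these livers. Any 2 libraries differed by a chi-square of at least 9.94 per degree of freedom. That was the value of *Themis*-KO replicates 1 and 2, and every other pair had at least 27.9. This measure cannot show that libraries come from separate mice, and each was counted as 1 replicate by its label. With 3 livers against 3 an exact permutation test cannot go below 0.1, so none was used.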

Additional observations from a re-analysis of the deposited data

How the results depend on the processing

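The count of genes past an adjusted p of 0.05 was 0 of 10 in the reported edgeR analysis (9.11% of all genes). It was 4 with DESeq2 (17.0%) and 4 without a filter on low counts (1212 higher and 967 lower of 25403 genes). With libraries scaled by total counts alone it was 2 (1449 and 387 of 14496). At an adjusted p under 0.1 it was 4, and the share of all genes at that threshold is not given here. Leaving out single livers gave 0 to 3. Without WT replicate 3 the count was 3, beside 481 higher and 369 lower of 14830 genes. It was also 3 without *Themis*-KO replicate 3, beside 2228 and 2039 of 14806. It stayed at 0 under RLE and upper quartile scaling, with at least 10 counts in every liver, with the mitochondrial type as a covariate and with a fold change of at least 2. The cause of these shifts was not tested. Total counts moved the median log2 fold change of all genes from 0.0095 to 0.15, so changes under that scaling are read relative to it, and gave 1449 genes higher and 387 lower. Over all genes, 721 were higher and 600 lower as reported, 1279 and 1090 with DESeq2, 1212 and 967 without a filter, 0 and 3 with the mitochondrial type as a covariate, and from 8 and 12 without *Themis*-KO replicate 1 to 2228 and 2039 when the *Themis*-KO liver numbered 3 was left out.

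In a fit that took the mitochondrial type as a covariate, which leaves 1 WT liver within a type, the log2 fold changes of *Clec4f*, *Vsig4*, *Folr2* and *Adgre1* turned to −0.17, −0.20, −0.23 and −0.089, that of *Csf1r* became 0.19, that of *Cd5l* 0.28, those of *Timd4* and *Marco* −1.27 and −2.44, and the median of the identity genes became −0.21. *Marco* ran from −1.80 to 0.075 with single livers left out, the latter without WT replicate 3. Over the other alternatives each of the 10 genes kept its sign, and the median of the identity genes ran from 0.044 to 0.39.

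The difference between identity and reference genes was −0.62 and, leaving out single livers, lay between −0.65 and −0.58. It was −0.58 against *Adgre1* alone, −0.66 against *Csf1r* alone and −0.84 against the 12 macrophage markers, all chosen after the data were examined. Against *Adgre1* and *Csf1r* together, the median of all genes tested also differed by −0.62, and that median is not given here for the alternatives.

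With the replicate number as a block, 0 of the 10 genes passed, and over all genes 17 were higher and 45 lower against 721 and 600 without it. After removing group means, livers that share a number correlated at −0.13 on average and those that do not at 0.066. Deviations sum to 0 within each label, which ties these averages together. They therefore cannot decide whether the numbers pair the livers. *Timd4*, with 67 counts in 1 liver, is the member most limited by depth.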
